A study of Drosophila mojavensis with 137 samples.

Results

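The comparison set slowly developing against rapidly developing adult males of Drosophila mojavensis, all virgin and all reared on fermented agria cactus. Membership followed the labels: 8 arrays of males that took 16 days from egg to adult (the slow group) and 7 arrays of males that took 14 days (the fast group), 15 of the 137 arrays of the series. Las Bocas in Sonora gave 3 fast and 4 slow arrays, and Punta Prieta in Baja California gave 4 of each. The flies were wild-type, from the stocks labelled LB09 and PP08, and RNA came from the whole organism. The larger study measured adults of both populations, both sexes, virgin or mated, from agria or organ pipe cactus, at several development times. Each array gave 1 log2 expression value for each of 14528 transcripts. All groups shared the same bottle culture and cycling incubator, and each locality was represented by 1 stock. The labels do not give the age of the adults, nor whether replicate arrays came from separate cultures. The p-values therefore speak to the spread among these arrays, which may be technical.

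Drosophila mojavensis breeds in the rotting tissue of columnar cacti, where larvae feed on the cactus and on the yeasts and bacteria that ferment it. Populations use different hosts: organ pipe is the main host in Sonora and agria the main host in Baja California. In holometabolous insects the larval period sets how much food an animal gathers before metamorphosis, and the adult body, including the testes and accessory glands, is built from that store. In a whole male, testis transcripts form a large part of what is expressed more strongly in males than in females. The transcripts are named only by FBtr number here, since 0 of the 14528 identifiers matched the 15130 genes of the reference table, so no gene name, pathway or sequence is given.

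The arrays carried the labelled sex. A sex score, the mean of strongly female-biased minus that of strongly male-biased transcripts (chosen on organ pipe virgins, which are not in the comparison), ran from -3.27 to -3.04 on the 15 arrays and from 2.23 to 3.72 on the 22 arrays of agria virgin females. Within groups of 14 or 16 days the median standard deviation of a transcript ran from 0.139 in slow Las Bocas males to 0.206 in both Punta Prieta groups. Fast Punta Prieta replicate 2 and slow Punta Prieta replicates 1 and 2 stood apart, with limma array weights of 0.303, 0.403 and 0.338, below the 0.5 used to mark such arrays. On the first principal component of the 25 agria virgin male arrays, which held 27.2% of the variance, fast Las Bocas males ran from -16.73 to 19.53 and slow ones from 0.94 to 22.70, and the Punta Prieta groups overlapped as widely.

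No transcript passed the test between slow and fast males. With population as a block, limma called 0 of 14528 transcripts (0%) at an adjusted p below 0.05, and the smallest adjusted p was 0.574. In all, 1204 transcripts, 8.29% of those tested, had an unadjusted p below 0.05. In the same fit the population of origin, Punta Prieta against Las Bocas, gave 767 called transcripts (5.28%), 276 higher and 491 lower in Punta Prieta. Of the variance summed over transcripts, population took 17.0%, days 9.30%, their product 5.84% and the spread between replicates 67.9%. In that order these had 1, 1, 1 and 11 degrees of freedom. A term without any effect also takes up some variance, and the shares were not tested. Without the 3 arrays that stood apart the count of calls was again 0, with 2035 transcripts higher and 934 lower in slow males at an unadjusted p below 0.05. With limma array weights the count was also 0, but the smallest adjusted p was 0.0595. There, 2510 transcripts were higher and 1207 lower at an unadjusted p below 0.05.

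For most transcripts the confidence intervals were narrow. Like the p-values, they rest on the spread among these arrays, which may be technical, so they do not bound the differences between slow and fast males in general. The median 95% confidence interval of a transcript reached 0.220 log2 to either side of its estimate. For 12335 transcripts the whole interval, unadjusted for the number of transcripts, lay within 0.5 log2 of no difference, and for 14353 it lay within 1. The estimates ran from -1.67 to 0.689, and 173 of them exceeded 0.5 in size, 159 lower and 14 higher in slow males. Single arrays moved these counts: with each array left out in turn the lower count ran from 102 (without fast Punta Prieta replicate 1) to 278 (without fast Las Bocas replicate 1 or fast Punta Prieta replicate 2), and the higher count from 10 to 41 (without fast Las Bocas replicate 1). The direction of the unadjusted differences depended on scaling: 786 were higher and 418 lower as deposited, 294 and 709 after median centring of the arrays, and 448 and 552 after quantile normalization. With each array left out they ran from 520 to 1447 higher and from 237 to 777 lower, both highest without fast Punta Prieta replicate 2.

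**Figure D1:**
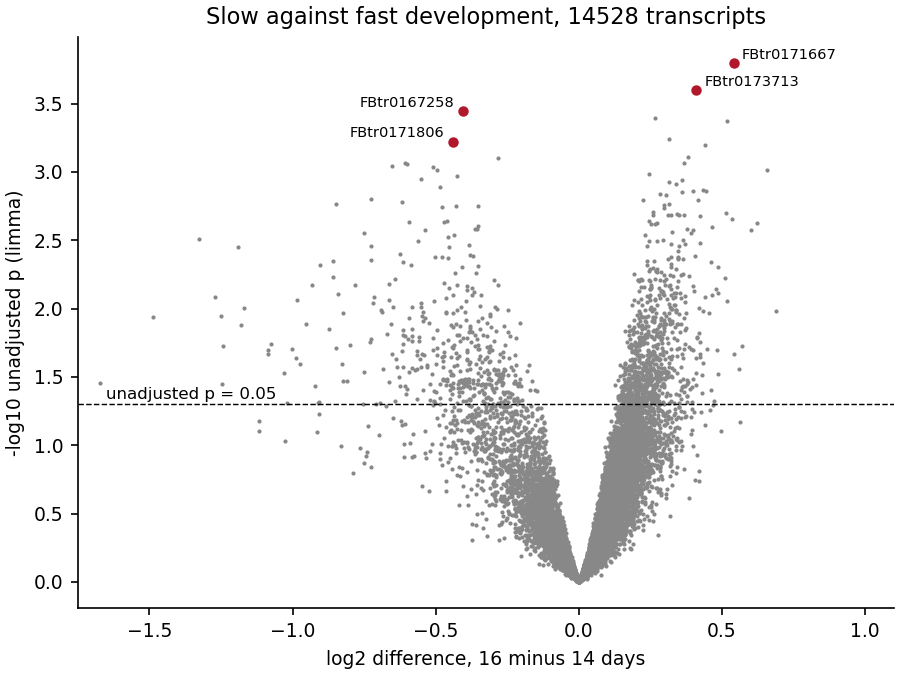
Each grey point is 1 of 14528 transcripts, with its log2 difference (16 minus 14 days, population as a block) on the x axis and the -log10 of its unadjusted limma p on the y axis. The dashed line marks an unadjusted p of 0.05, and the red points are the 4 transcripts named by smallest p in each direction, none of which passed after adjustment (adjusted p = 0.574 for each). The largest estimates all lie on the left, down to -1.67.

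The transcripts with the smallest p in each direction are given next, none of them past the threshold. FBtr0171667 read 9.59, 9.15 and 9.46 in fast Las Bocas males and 9.66, 9.99, 9.83 and 9.75 in slow ones. In Punta Prieta it read 8.90, 9.40, 8.85 and 9.12 in fast males and 9.54, 10.02, 9.83 and 9.49 in slow ones. Every slow array lay above every fast array of its population. The mean difference was 0.54 log2 (SE 0.11) and did not pass after adjustment over all transcripts (limma adjusted p = 0.574). This transcript showed little sex bias and lay in the dimmest 25% of transcripts, where the standard errors were the largest.

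FBtr0173713, moderately male-biased, read 10.38, 9.90 and 10.17 in fast and 10.69, 10.25, 10.39 and 10.40 in slow Las Bocas males. Its Punta Prieta values were 9.97, 10.07, 10.06 and 10.27 in fast and 10.57, 10.63, 10.62 and 10.63 in slow males. The groups overlapped in Las Bocas but not in Punta Prieta, and the mean difference was 0.41 (SE 0.088).

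On the lower side, FBtr0167258 read 8.27, 8.75 and 8.41 in fast and 8.21, 8.14, 7.79 and 8.27 in slow Las Bocas males. In Punta Prieta it read 8.50, 8.67, 8.70 and 8.47 in fast and 8.22, 8.25, 8.14 and 8.02 in slow males. All slow values lay below all fast ones in both populations, in Las Bocas by only 8.268 against 8.271, and the mean difference was -0.41 (SE 0.090). FBtr0171806, a bright transcript, read 14.68, 14.38 and 14.30 in fast and 13.76, 13.87, 13.78 and 13.98 in slow Las Bocas males. Its Punta Prieta values were 14.96, 14.33, 14.67 and 14.62 in fast and 14.52, 14.49, 14.18 and 14.21 in slow males. Slow Las Bocas males were all below fast ones, the Punta Prieta groups overlapped, and the mean difference was -0.44 (SE 0.10).

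**Figure D2:**
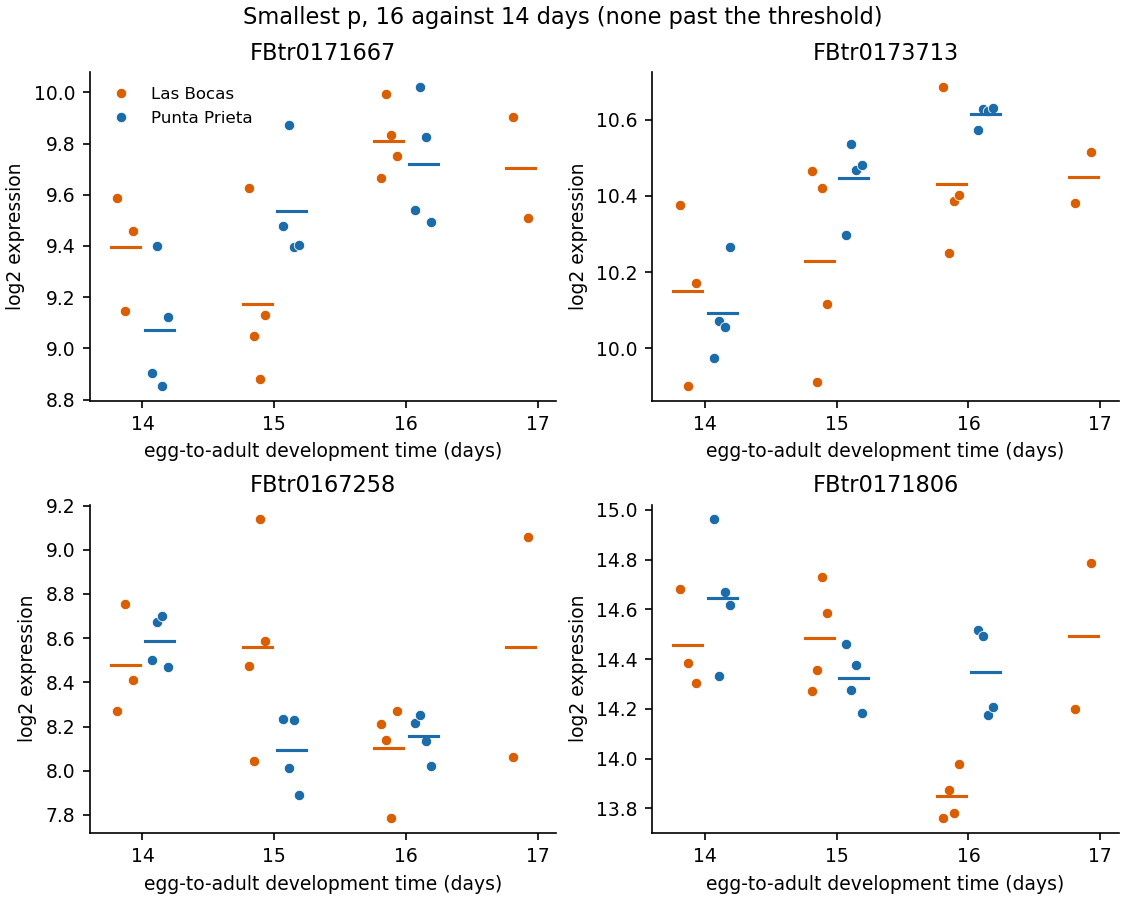
Log2 expression of the 4 transcripts named for the comparison, on each of the 25 agria virgin male arrays, by egg-to-adult time in days (points are arrays, orange for Las Bocas and blue for Punta Prieta, horizontal bars are group means). The arrays of 15 and 17 days were not used in the test. For FBtr0171667 all slow arrays lie above all fast arrays of their population.

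The largest estimates belonged to a set of 19 transcripts more than 1 log2 lower in slow males, chosen on this contrast and so described without a test. Averaged over the 19, fast Las Bocas males read 9.44, 11.83 and 11.23 and slow ones 9.37, 10.49, 9.54 and 9.50. Fast Punta Prieta males read 12.50, 9.65, 11.94 and 10.68 and slow ones 10.74, 10.04, 9.40 and 9.56. The slow arrays reached at most 10.74, while fast Las Bocas replicate 1 and fast Punta Prieta replicates 2 and 4 lay within the range of the slow arrays of their population, so the groups overlapped in both populations.

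Single transcripts of the set had standard errors of 0.349 to 0.727, the smallest adjusted p was 0.579, and the estimates just inside and just outside the 1 log2 limit were -1.002 and -0.987. On the 10 agria male arrays of 15 or 17 days, which did not choose the set, its members varied together, with a median pairwise Pearson r of 0.782 (range -0.452 to 0.984, a description over 10 arrays of 4 or fewer per group). Of the 19, 16 were moderately female-biased, against 32.1% of all transcripts, and the agria virgin females averaged 10.94 (9.87 to 12.41). In bulk samples such as these, fewer cells of a type and less RNA per cell cannot be told apart. The number of transcripts over 1 log2 lower was 7 without fast Las Bocas replicate 2 and 7 without fast Punta Prieta replicate 1, against 38 without fast Las Bocas replicate 1, 36 without fast Punta Prieta replicate 2 and 48 without the 3 arrays that stood apart.

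**Figure D3:**
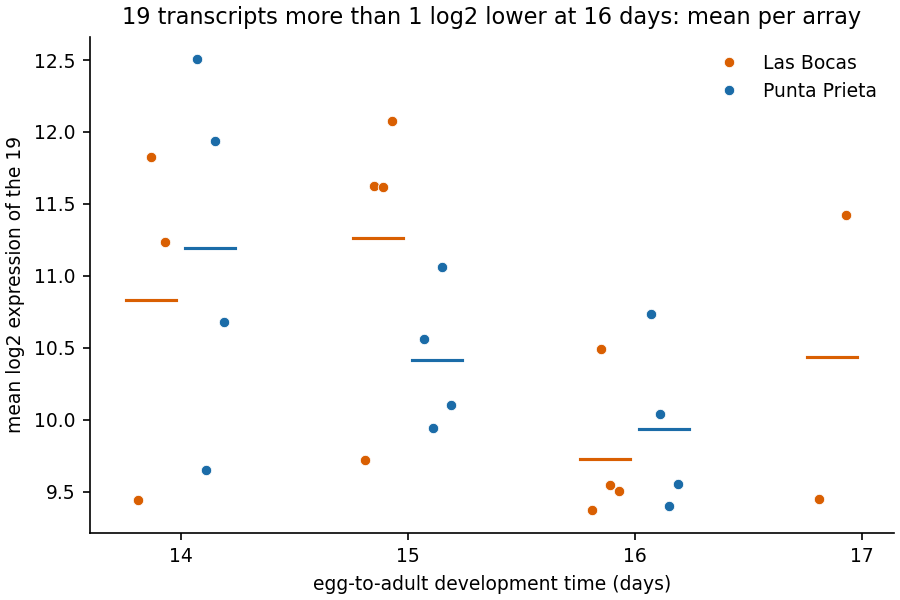
Mean log2 expression of the 19 transcripts more than 1 log2 lower at 16 than at 14 days, on each agria virgin male array, by egg-to-adult time in days (points are arrays, bars are group means). The arrays of 14, 15 and 17 days spread between about the level of the slow arrays and the highest value, 12.50, while the slow arrays reach no higher than 10.74.

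Large estimates in both directions sat among dim transcripts, and the lower ones among moderately female-biased transcripts. Of the 159 more than 0.5 log2 lower in slow males, 94 (59.1%) lay in the dimmest 25% of transcripts by their mean in organ pipe virgin males, as did 10 of the 14 more than 0.5 log2 higher (71.4%). Moderate female bias, 0.5 to 2 log2 in organ pipe virgins, marked 127 of the 159 (79.9%) and 1 of the 14, against 32.1% of all transcripts. Leaving out the dimmest 25% by their mean on the 15 arrays themselves, a different set, left 69 of this size lower and 4 higher. Whether brightness played a part in these differences was not tested.

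As deposited, male-biased transcripts were the most one-sided of the classes by sex bias. Of 1450 transcripts male-biased over 4-fold, 99 were higher and 0 lower in slow males at an unadjusted p below 0.05, and of 1320 with moderate male bias 110 were higher and 5 lower. Those made up 6.83% and 8.71% of the classes, beside 8.29% of all 14528 transcripts (786 higher and 418 lower). The median differences of these male-biased classes were 0.0679 and 0.0787, beside 0.0502 over all transcripts, and 0.00859 and 0.0193 after median centring. Of 4665 with moderate female bias, 243 were higher and 265 lower (10.9% of the class). The median of that class, 0.0495, changed sign to -0.00986 after centring, as did that of the 6776 with little sex bias, 0.0382 and -0.0211. The 317 transcripts female-biased over 4-fold had a median of 0.0716, or -0.0138 with an 8-fold limit in place of 4-fold. Limma called 0 transcripts in each class.

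**Figure D4:**
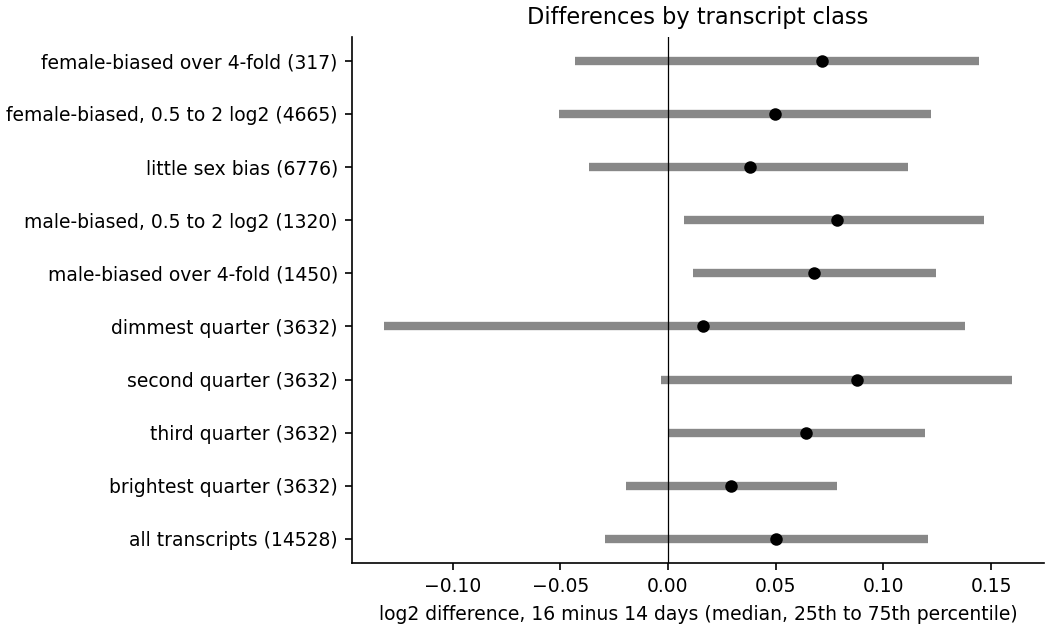
Median (points) and 25th to 75th percentile (bars) of the log2 difference, 16 minus 14 days, for classes of transcripts by sex bias and by brightness, as deposited, with the number of transcripts in brackets. Medians run from 0.0163 in the dimmest 25% to 0.0877 in the next 25%. After median centring those of moderate female bias, little sex bias, the dimmest 25% and the brightest 25% turn negative.

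Classes were also taken from other contrasts on organ pipe males. The mating classes came from 25 Punta Prieta arrays, with 1 array left out because its sex score lay with the opposite sex. The 494 transcripts higher in mated than virgin organ pipe males of Punta Prieta had a median of -0.0179 in slow against fast males. Of them, 2 were higher and 10 lower at an unadjusted p below 0.05 (2.43%, beside 8.29% of all transcripts). The 314 lower in mated males had a median of 0.0770. The 110 transcripts higher in Punta Prieta than Las Bocas organ pipe males had a median of -0.0522, and the 112 lower there one of -0.0005. In that order, median centring gave -0.0773, 0.0176, -0.111 and -0.0598. Each of these medians was below 0 in Las Bocas (-0.0900, -0.0241, -0.126 and -0.0444) and above 0 in Punta Prieta (0.0334, 0.158, 0.0660 and 0.0440), beside 0.0371 and 0.0571 over all transcripts.

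Within Las Bocas alone limma called 0 transcripts (0%), with a smallest adjusted p of 0.450. At an unadjusted p below 0.05 there were 801 (5.51% of all transcripts). FBtr0173699 had the smallest p on the higher side, with 10.50, 10.24 and 10.46 in fast and 11.04, 10.96, 10.83 and 10.96 in slow males, a difference of 0.55 (SE 0.10). FBtr0171968 stood on the lower side, with 12.76, 12.57 and 12.51 in fast and 12.03, 11.82, 11.77 and 11.66 in slow males, a difference of -0.79 (SE 0.14). Neither overlapped between fast and slow Las Bocas males, and in Punta Prieta they differed by 0.06 (SE 0.092) and 0.03 (SE 0.13). FBtr0170591 came next on the higher side, at 0.55 (SE 0.12), and FBtr0163579 on the lower side, at -0.75 (SE 0.18).

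Within Punta Prieta limma likewise called 0 transcripts (0%), with a smallest adjusted p of 0.674. At an unadjusted p below 0.05 there were 1060 (7.30%). FBtr0169098 read 10.75, 10.83, 10.86 and 10.72 in fast and 11.38, 11.33, 11.73 and 11.57 in slow males, a difference of 0.71 (SE 0.13). FBtr0174562 read 12.97, 12.25, 12.68 and 12.49 in fast and 12.29, 11.63, 11.39 and 11.58 in slow males, a difference of -0.88 (SE 0.18). The fast and slow values of FBtr0169098 were apart. Those of FBtr0174562 met only where slow replicate 1 (12.29) lay above fast replicate 2 (12.25), both among the arrays that stood apart.

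FBtr0163095 differed by 1.07 (SE 0.21) and FBtr0169358 by -1.11 (SE 0.23) in Punta Prieta. With limma array weights 5 transcripts passed in this population, among them FBtr0169098 (0.81), FBtr0163095 (1.40) and FBtr0174562 (-1.09), and without the arrays that stood apart 3 passed, among them FBtr0174562 (-1.23).

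The difference between the populations in the slow-minus-fast contrast was tested in the same fit, and 0 transcripts passed (0%). The smallest adjusted p was 0.541, and 753 transcripts (5.18%) had an unadjusted p below 0.05. Across the 14528 transcripts the Las Bocas and Punta Prieta differences correlated with a Pearson r of 0.203, a description across transcripts that are not independent. Of the 801 unadjusted Las Bocas differences, 49.7% had the same sign in Punta Prieta, beside 57.1% of all transcripts. The widest gap among the named was FBtr0163579. It read 10.96, 10.69 and 10.40 in fast and 9.89, 9.74, 9.73 and 10.36 in slow Las Bocas males, against 9.94, 9.68, 9.92 and 10.31 in fast and 10.49, 10.45, 10.72 and 10.59 in slow Punta Prieta males. Slow males were thus lower than all fast ones in Las Bocas (-0.75) and higher than all fast ones in Punta Prieta (0.60), a difference between populations of 1.35 (SE 0.24, limma adjusted p = 0.541).

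FBtr0172822 had the same pattern, at -0.35 in Las Bocas and 0.41 in Punta Prieta. FBtr0164767 had the opposite one: 11.68, 11.82 and 11.87 in fast and 12.23, 12.27, 12.30 and 12.02 in slow Las Bocas males, with 12.33, 12.42, 12.21 and 12.28 in fast and 12.06, 11.82, 12.07 and 11.97 in slow Punta Prieta males. FBtr0163466 likewise read 0.49 in Las Bocas and -0.25 in Punta Prieta.

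**Figure D5:**
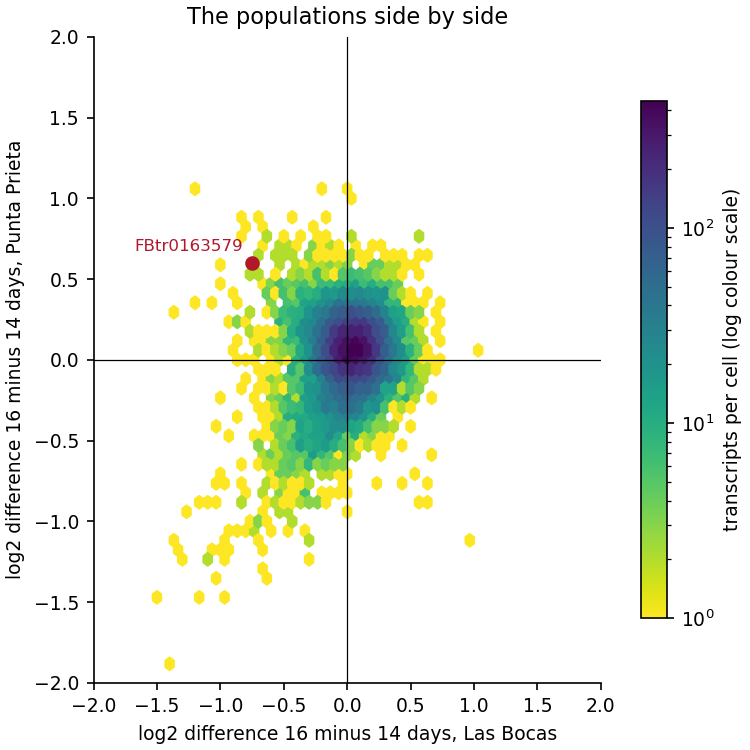
Log2 difference, 16 minus 14 days, in Las Bocas (x axis) and in Punta Prieta (y axis) for 14528 transcripts, with colour giving the number of transcripts per cell on a log scale. The marked transcript is FBtr0163579, at -0.75 and 0.60. The cloud is centred near 0 on both axes and extends furthest towards the lower left.

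Slow and fast arrays did not overlap for 1230 transcripts in Las Bocas (8.47%) and for 305 in Punta Prieta (2.1%). Las Bocas had 3 fast and 4 slow arrays and Punta Prieta 4 of each. Fewer arrays part more readily by chance, so the shares of the populations cannot be compared directly. With so few arrays some transcripts part by chance alone, and neither these shares nor the counts in both populations were tested against that. In both populations and in 1 direction there were 24 (0.165%), 21 higher and 3 lower in slow males, while 12 and 8 were apart in opposite directions. The 21 were higher by 0.177 to 0.541 log2 (median 0.259), and the 3 lower by -0.283 to -0.508. By class, 8 of the 21 had little sex bias, 5 moderate male bias, 4 male bias over 4-fold, 3 moderate female bias and 1 female bias over 4-fold. In that order, the classes held 6776, 1320, 1450, 4665 and 317 of all 14528 transcripts. The 24 were chosen on the contrast itself, so their size is a description.

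Arrays that the comparison did not use gave the same contrast in other flies. In agria virgin females, 13 arrays of 14 or 16 days, limma called 0 transcripts (0%), with a smallest adjusted p of 0.101. At an unadjusted p below 0.05 there were 2859 (19.7%). The description of 1 of these arrays, slow Las Bocas female replicate 3, contradicts its title, and it was kept as titled. Of the 24 transcripts apart in both male populations, 13 of the 21 higher and 3 of the 3 lower had the same sign in females. Over all transcripts, 53.7% were higher and 46.3% lower in slow females. The Pearson r across the 14528 transcripts was 0.290, and 67.4% of the 1204 unadjusted differences had the same sign in females, beside 61.0% of all transcripts. Of the 19 transcripts more than 1 log2 lower in males, 14 were lower in females, and the median over all 19 was -0.33.

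The difference between the sexes was tested directly, and 0 transcripts passed (0%; smallest limma adjusted p 0.257, with 1329 at an unadjusted p below 0.05). Transcripts male-biased over 4-fold had a median of 0.0679 in males and -0.207 in females. FBtr0175085, moderately male-biased, read 10.61, 10.49 and 10.96 in fast and 11.17, 11.03, 10.94 and 10.87 in slow Las Bocas males, and 10.89, 10.89, 10.82 and 10.90 in fast and 10.91, 11.18, 11.12 and 11.15 in slow Punta Prieta males. Its slow-minus-fast difference was 0.26 in males and -0.43 in females, a difference between sexes of 0.69 (SE 0.14).

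FBtr0172645 differed by 0.13 in males and -0.57 in females. FBtr0162950 (-0.12 and 0.53) and FBtr0161486 (-0.07 and 0.73) went the other way. With array weights 34 transcripts passed this test of the difference, 30 more positive and 4 more negative in males, these 4 named transcripts among them.

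Organ pipe virgin males of Punta Prieta, 2 fast and 4 slow arrays, gave 0 calls (0%; smallest limma adjusted p 0.999, with 53 at an unadjusted p below 0.05). The agria contrast minus the organ pipe contrast gave 0 as well (0%, smallest limma adjusted p 0.833), with 306 (2.11%) at an unadjusted p below 0.05. Of the 24 transcripts apart in both agria populations, 3 of the 21 higher and 1 of the 3 lower had the same sign on organ pipe, where 42.4% of all transcripts were higher and 57.6% lower in slow males. Across the 14528 transcripts the Las Bocas agria differences, which share no array with these, correlated with the organ pipe ones with a Pearson r of -0.218, and 43.0% had the same sign. The 19 lower on agria had a median of 0.87 on organ pipe, where 3 of the 19 were lower. FBtr0164748 read 7.94, 8.13, 7.98 and 7.87 in fast and 7.64, 7.44, 7.32 and 7.45 in slow agria males, with 7.33 and 7.05 in fast and 7.65, 7.67, 7.77 and 7.62 in slow organ pipe males. The order of slow and fast was opposite on the 2 cacti, a difference between diets of -1.004 (SE 0.18) that did not pass.

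Its counterpart FBtr0164594 differed by -0.23 on agria and 0.80 on organ pipe. In the positive direction FBtr0175044 differed by 0.17 and -0.82, and FBtr0167224 by 0.49 and -0.38.

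Agria virgin males of 15 days (8 arrays) and of 17 days (2 arrays, Las Bocas only) lay between and beyond the compared times. In Las Bocas, 17 minus 15 days is again a 2-day step, on separate arrays. Its differences correlated with those of slow minus fast males with a Pearson r of 0.423 across transcripts, and 77.7% of the 1204 unadjusted differences had the same sign, beside 64.6% of all. The same sign was seen for 19 of the 21 higher and 2 of the 3 lower transcripts that were apart in both populations. Of the 19 large ones, 18 were lower, and the median over all 19 was -0.87. Over all transcripts, 55.2% were higher and 44.8% lower at 17 than at 15 days. With 2 arrays at 17 days these are descriptions. The 17-day arrays themselves disagreed: the mean of the 19 was 9.45 on one and 11.42 on the other, and FBtr0167258 read 8.06 and 9.06.

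Mated agria males had 1 array of 14 and 1 of 16 days in each population, so their differences have no replicate check. The mean of the 2 populations' differences ran opposite to that of virgin males, with a Pearson r of -0.348 across the 14528 transcripts. The same sign was seen for 35.5% of all transcripts and for 21.2% of the 1204 unadjusted differences.

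Whole-array values differed little. The median log2 value of an array was higher in slow males by 0.0577, with 0.0371 in Las Bocas and 0.0784 in Punta Prieta (exact permutation test within populations, two-sided p = 0.0212, Benjamini-Hochberg adjusted over 3 scores p = 0.0637). The sex score differed by -0.0312 (exact permutation p = 0.340) and the standard deviation of the array by 0.00281 (exact permutation p = 0.860). The sex score difference was -0.0980 with an 8-fold limit on its transcripts (exact permutation p = 0.0616) and -0.0151 to -0.0532 with each array left out, the last without slow Punta Prieta replicate 1 and the first without fast Punta Prieta replicate 4.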

How the data were processed

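Total RNA of whole flies was hybridised to 1-colour NimbleGen arrays. The deposited log2 values were made with RMA, per the submitters' processing notes. RMA draws the arrays towards a common distribution, so a change of total RNA cannot be seen and low signals are compressed. The sources used here give no version of RMA. Slides and scan dates were not analysed, so effects of slide were not tested. Values ran from 5.829 to 15.89 with 0 missing, and 0 columns were identical.

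Limma 3.58.1 in R 4.3.3 (lmFit, eBayes) was run on all 14528 transcripts with Benjamini-Hochberg adjustment and a threshold of 0.05. The fit was also run on simulated data with independent noise and arrays of equal quality. The real arrays had unequal limma weights, so the simulation does not show how the fit behaves on them. Transcripts were named by a rule: for each comparison 2 in each direction, the largest past the threshold or, where fewer pass, those with the smallest p. The gene lists planned for this work had 0 matched identifiers and were not run. The members, lists and classes were chosen with earlier results of these data known. Array scores were compared with exact permutation tests over 2450 arrangements. Whether replicate numbers pair the samples is not settled. Deviations of same-numbered fast and slow agria virgin male arrays correlated from -0.599 to 0.331, and female arrays were not examined.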

Additional observations from a re-analysis of the deposited data

Results flagged for a closer look

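Groups of values were examined in slow Las Bocas, fast Punta Prieta and slow Punta Prieta males, 54 in all. In 2 of the 54, both in slow Punta Prieta males, 1 array stood away from the other 3. Chance gives about 1 in 20, so 2 of 54 is no more than chance gives. FBtr0173713 read 10.5744 on replicate 1, against 10.62 to 10.63 on the others. The sex score of the same array was -3.087, against -3.273 to -3.244.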

How the results depend on the processing

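For slow against fast males over both populations, in Las Bocas alone, for the population difference and for the diet difference, the count of calls was 0 under every alternative run. Over both populations the smallest limma adjusted p varied widely. It was 0.0595 with array weights, 0.0692 to 0.890 with each array left out, and 0.903 with all virgin male arrays of both cacti. An unplanned fit linear in days gave 0.0805. In Punta Prieta it was 5 with array weights, 3 without the arrays of weight below 0.5 (chosen after seeing the data), and 0 to 1 with each array left out in turn. The count was 1 without fast replicate 4 and 1 without slow replicate 2. The sex difference gave 34 with array weights, 15 with the replicate block (all more negative in males) and 0 to 2 with each array left out, the 2 without slow Punta Prieta female replicate 1. The replicate block gave 0 in the other comparisons, and whether the replicate numbers pair the samples is not settled.

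With each array left out, the array SD difference ran from -0.00529 to 0.0122 and changed sign in some of them (-0.00186, -0.000507, -0.00218, -0.00300 and -0.00176 in the others below 0). The median difference ran from 0.0485 to 0.0761, with exact p = 0.0581 without fast Las Bocas replicate 2 or 3. Median centring gave class medians of 0.0122 for female bias over 4-fold, -0.00986 and -0.0211 for moderate female and little bias, and 0.0193 and 0.00859 for moderate and over 4-fold male bias. It gave 0.0284, 0.00494 and -0.0300 for the brightness classes from the second-dimmest 25% to the brightest 25%. An 8-fold limit gave -0.0138 for female bias. The cause was not tested. The number of arrays limits the precision of each value.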
